A study of Homo sapiens with 16 samples.

Results

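The 9 laminin chain genes described here are LAMA1, LAMA2, LAMA3, LAMA4, LAMA5, LAMB1, LAMB2, LAMB3 and LAMC1. They were chosen by symbol from a family known beforehand and not by a measured value, and all 9 were found among the 28278 gene symbols counted. RNA-seq counts came from 16 libraries of a pair of established human melanoma lines, SKMEL28 and A375. Both lines are known to carry an activating BRAF mutation. For SKMEL28 there was a single wild-type library, whose label gives it replicate number 4. The line labelled MITFKO, called D2 by the submitters, had 3 libraries, and clones 3 and 13 had 3 each. In these clones TFE3 had been edited by CRISPR-Cas9 on top of the MITFKO background. Those clones are abbreviated DKO below. A375 gave 3 wild-type libraries and 3 labelled TFE3KO, edited in cells whose MITF had not been edited. Replicates were separate flasks of 1 line or clone, so p-values measure the spread between cultures and not between independent edits. The labels do not say whether the A375 TFE3KO cells were a clone. RPMI was the medium for SKMEL28 and DMEM that for A375, both with 10% serum. Fresh medium was given 24 hours before harvest. Line and medium therefore cannot be told apart.

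Totals ran from 17320855 to 31269126 counts per library. Levels are CPM, counts relative to library size after trimmed-mean (TMM) scaling over all 16 libraries, as mean ± SD with n = 3, except the lone SKMEL28 wild-type library. MITF mRNA stood at 512 ± 30.8 CPM in the libraries labelled MITFKO against 539 in wild type, and TFE3 stood at 9.63 ± 1.85 CPM in clone 3 and 47.0 ± 2.98 in clone 13 against 75.4 ± 3.79 in MITFKO. The MITFKO label, and the TFE3KO label of clone 13, were therefore not checked by these counts. In A375, TFE3 went from 120 ± 5.67 to 11.6 ± 0.685 CPM. Of 6 melanocyte markers, all had counts in every SKMEL28 group, but not at like levels. MLANA went from 739 CPM in SKMEL28 wild type to 3.22 in MITFKO, 3.38 in clone 3 and 0.926 in clone 13. PMEL (10443 to 3371 CPM), DCT (812 to 289), S100B and TYR were also lower in MITFKO than in the wild-type library, and SOX10 was higher. In A375 only SOX10 was abundant (503 CPM in wild type and 787 in TFE3KO). TYR had no counts in A375, and PMEL and MLANA averaged under 1 CPM there, with at most 1.19 and 1.69 CPM in a library. Among markers of other cells, the fibroblast genes PDGFRA, LUM and DCN summed to 45.1 CPM in SKMEL28 wild type, 51.9 to 61.9 in MITFKO, 101.9 to 109.04 in clone 3, 76.1 to 89.0 in clone 13 and at most 4.96 in A375, and none of the 3 was at 0 in any group. Most of the fibroblast sum in SKMEL28 was LUM alone, at 40.8 CPM in wild type, 49.7 in MITFKO, 95.2 in clone 3 and 74.1 in clone 13. Keratinocyte markers summed to 17.2 to 24.8 CPM in A375, nearly all KRT14, and to at most 3.76 in SKMEL28. Their part in the laminin values was not tested. In bulk RNA, fewer cells of a type and less RNA per cell cannot be told apart.

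Laminins are large cross-shaped glycoproteins of the basement membrane. Each is a trimer of 1 α, 1 β and 1 γ chain joined through a coiled coil, and its name lists the chain numbers in that order, so that laminin-411 holds α4, β1 and γ1. The α chain carries the globular end that integrins and dystroglycan bind, while short arms of the chains can link many trimers into a network that anchors to nidogen and collagen IV. LAMA1 is typical of embryonic basement membranes, LAMA2 of muscle and nerve, LAMA3 and LAMB3 of the skin epithelium, and LAMA4 and LAMA5 of blood vessels. Melanoma cells are known to secrete laminins and to adhere and migrate on them.

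Promoter sequence was examined because MITF and TFE3 bind the letters CACGTG, and MITF family members also bind TCATGTG. RefSeq promoters of GRCh38.p14 were matched by symbol for 8 of the 9 chains (all but LAMA1, with 3 entries for LAMB3), and the 250 bases before the start were searched on both strands. Neither motif holds the other. No member had CACGTG, which 6.35% of 35116 promoters held, and 1 member, LAMA3, had TCATGTG, which 2.52% held. The following 3 were picked after their values were seen: LAMA4, which was higher in each edited line or clone than in the cells it was compared with below, LAMA3 for its motif, and LAMC1, the chain shared by most trimers. Capitals mark TCATGTG. The LAMC1 stretch holds 32 CG pairs, against 5 in LAMA4 and 9 in LAMA3.
LAMA4 (chr6:112254568-112254817, minus strand): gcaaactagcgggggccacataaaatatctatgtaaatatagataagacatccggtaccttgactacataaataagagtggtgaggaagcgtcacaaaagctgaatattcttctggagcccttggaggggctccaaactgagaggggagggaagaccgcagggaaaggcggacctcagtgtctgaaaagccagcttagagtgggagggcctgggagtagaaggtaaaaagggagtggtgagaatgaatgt
LAMA3 (chr18:23872770-23873019, plus strand): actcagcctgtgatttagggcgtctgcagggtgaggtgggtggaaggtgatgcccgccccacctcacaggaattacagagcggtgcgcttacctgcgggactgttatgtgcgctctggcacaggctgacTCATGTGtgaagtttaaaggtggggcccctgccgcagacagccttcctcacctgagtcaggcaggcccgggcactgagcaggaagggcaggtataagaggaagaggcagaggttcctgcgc
LAMC1 (chr1:183023170-183023419, plus strand): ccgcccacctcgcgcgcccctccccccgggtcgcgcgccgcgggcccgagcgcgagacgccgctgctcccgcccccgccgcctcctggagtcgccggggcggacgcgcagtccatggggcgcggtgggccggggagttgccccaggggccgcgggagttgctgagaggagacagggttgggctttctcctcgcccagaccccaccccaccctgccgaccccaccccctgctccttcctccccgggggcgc
A match is only a run of letters, and the absence of one describes these 250 bases alone.

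To compare levels between chains, CPM was divided by the length of the longest coding GENCODE 29 transcript of each gene. The promoters above were matched by symbol, so their starts need not belong to these transcripts. On this per-length scale the α chains had the lowest mean sum of the classes in every group but SKMEL28 wild type. In A375 wild type the 5 α chains summed to 15.1 ± 0.527 CPM per kb, against 102.8 ± 2.32 for the β chains and 99.4 ± 2.99 for the γ chains LAMC1 and LAMC3. In A375 TFE3KO the α sum was 39.8 ± 1.18. In SKMEL28 it was 75.0 in wild type, and 72.6 ± 0.742 in MITFKO, while clone 3 had 92.5 ± 3.12 and clone 13 had 110.4 ± 7.71. The identity of the leading α chain differed between groups. LAMA1 made up 63.7% of α chain mRNA per length in SKMEL28 wild type and 30.6% ± 0.454 in MITFKO, where LAMA4 led with 64.0% ± 0.484. In A375 wild type LAMA5 (46.2% ± 0.437) and LAMA4 (45.2% ± 0.452) were close to equal, and in A375 TFE3KO LAMA4 held 88.9% ± 0.237. LAMC1 supplied 95.1% to 99.95% of the mRNA of LAMC1 and LAMC3 together, over the 6 groups. LAMB1 led the β chains everywhere, from 50.2% ± 0.794 in MITFKO to 77.2% ± 0.586 in A375 TFE3KO.

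**Figure D1:**
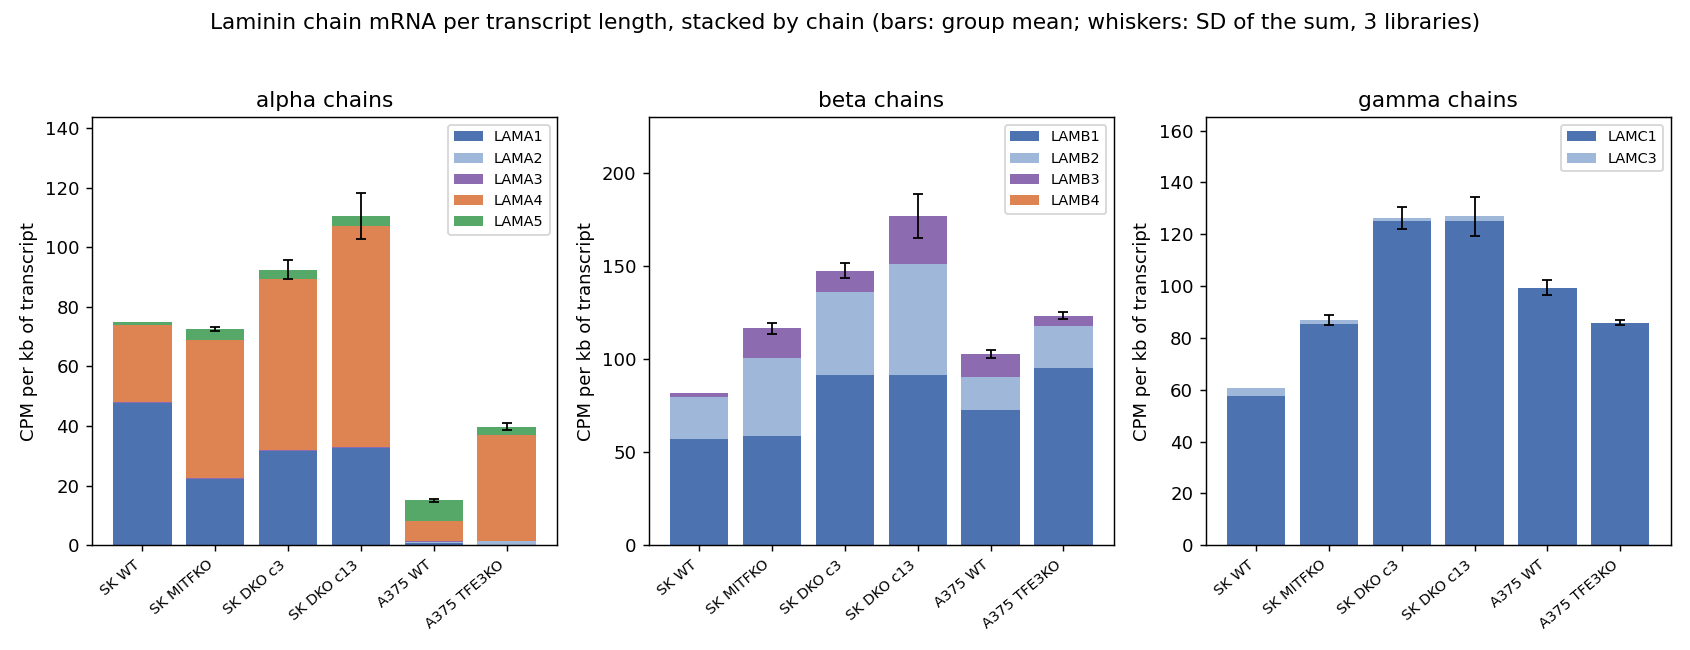
Stacked bars give the group mean of each laminin chain in CPM per kb of transcript, by α, β and γ class, for 6 groups (SK, SKMEL28; c3 and c13, clones 3 and 13), with whiskers for the SD of the class sum over 3 libraries. The α bar changes from mostly LAMA1 to mostly LAMA4 between SKMEL28 wild type and MITFKO, and goes from 15.1 to 39.8 in A375.

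A trimer was counted as allowed where the mean of each of its 3 chains reached 1 CPM. The count covered 13 known trimers, some of which need LAMC3 (γ3), which is not among the 9 members. LAMB3 enters none of the 13. SKMEL28 wild type allowed 8 trimers: laminin-111, laminin-121, laminin-411, laminin-421, laminin-423, laminin-511, laminin-521 and laminin-523. MITFKO allowed 10, the same 8 plus laminin-311 and laminin-321, as LAMA3 passed the limit there, and each DKO clone allowed these 10 too. A375 wild type allowed 10 trimers, including laminin-211 and laminin-221 but not laminin-423 or laminin-523, since LAMC3 averaged 0.278 ± 0.187 CPM. A375 TFE3KO allowed 8, and the 2 that dropped out were laminin-111 and laminin-121. At 0.5 CPM the order of the A375 groups turned, with 10 trimers in wild type and 11 in TFE3KO, where laminin-213, laminin-423 and laminin-523 came in through LAMC3; SKMEL28 wild type then allowed 11 and each edited SKMEL28 group all 13. At 5 CPM, the A375 sets were laminin-111, laminin-121, laminin-411, laminin-421, laminin-511 and laminin-521 in wild type, and laminin-211, laminin-221, laminin-411, laminin-421, laminin-511 and laminin-521 in TFE3KO. At that stricter limit each SKMEL28 group allowed the same 8 as the wild-type library.

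The scarcest chain of a trimer caps how much of it the mRNA could support. For laminin-411 that chain was LAMA4 in every group, at 26.0 CPM per kb in SKMEL28 wild type, 46.5 ± 0.364 in MITFKO, 57.5 ± 2.52 in clone 3, 73.9 ± 3.63 in clone 13, 6.83 ± 0.17 in A375 wild type and 35.4 ± 1.14 in A375 TFE3KO. For laminin-111 it was LAMA1, which fell from 47.8 in SKMEL28 wild type to 22.2 ± 0.376 in MITFKO and lay at 0.795 ± 0.0785 in A375 wild type. LAMB3 stood at 15.7 ± 0.869 CPM per kb in MITFKO. These are mRNA values, and chain secretion was not measured.

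**Figure D2:**
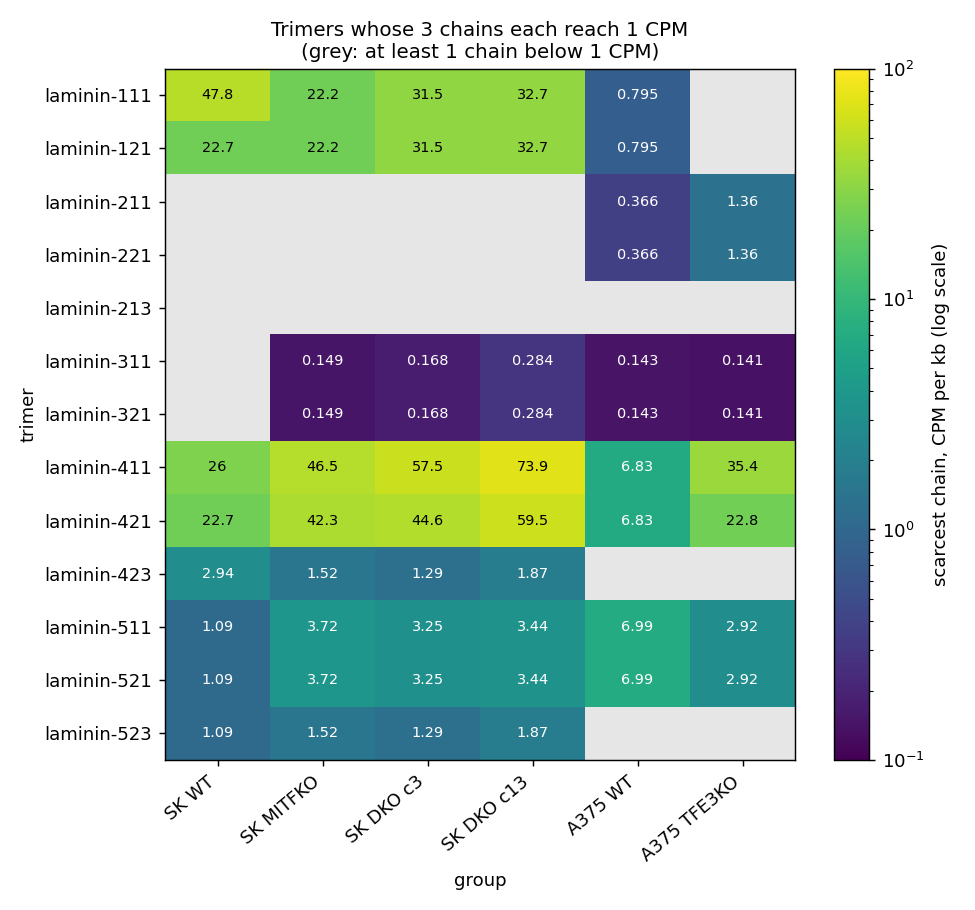
Each cell gives the level of the scarcest chain of a trimer in a group, in CPM per kb on a log colour scale, and grey cells are trimers with a chain below 1 CPM. Laminin-411 is highest in clone 13 (73.9), and laminin-111 and laminin-121 are grey in A375 TFE3KO.

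Among the α chains, LAMA1 separated the lines, and so did the scarcer LAMA2 in the other direction (values below). LAMA1 stood at 461 CPM in the SKMEL28 wild-type library. The MITFKO libraries had 211.4, 219 and 214 CPM. Clone 3 had 297, 316 and 301, and clone 13 had 295, 363 and 289. All edited SKMEL28 libraries were below the wild-type library, and both clones lay above MITFKO and overlapped each other. Relative to wild type, LAMA1 fell in the libraries labelled MITFKO (log2 fold change -1.10 ± 0.0924 SE, adjusted p = 2.14e-09, edgeR's quasi-likelihood F-test, adjusted by Benjamini-Hochberg over all genes, as throughout). It rose from MITFKO to clone 3 (0.51 ± 0.0697, adjusted p = 8.03e-06) and to clone 13 (0.56 ± 0.0696, adjusted p = 1.54e-06). In A375 wild type it was at 7.09, 8.54 and 7.42 CPM, and in A375 TFE3KO at 0.153, 0.0446 and 0, from 5, 1 and 0 counts. The A375 groups did not overlap, and LAMA1 fell 88.9-fold in the fit (-6.47 ± 0.383, adjusted p = 2.22e-20). With only 6 counts in all on the TFE3KO side, the size of this fall is imprecise, and the SE may be too small.

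LAMA4, the α chain of vascular and melanoma laminins, moved upward in each edit. SKMEL28 wild type had 170.2 CPM, MITFKO 303, 303 and 307, clone 3 had 385, 387 and 357, and clone 13 had 458, 504 and 489.9. The order from wild type to clone 13 held with no overlap between neighbouring groups. LAMA4 rose in MITFKO against wild type (log2 fold change 0.84 ± 0.0823, adjusted p = 1.82e-08), and against MITFKO in clone 3 (0.31 ± 0.0552, adjusted p = 0.000143) and clone 13 (0.67 ± 0.0552, adjusted p = 3.15e-09). A375 wild type had 44.7, 45.8 and 43.6 CPM, and TFE3KO had 237, 223 and 234, a 5.19-fold rise (2.37 ± 0.0459, adjusted p = 3.19e-41). The 3 SKMEL28 comparisons share the MITFKO libraries, so they are not separate evidence.

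LAMA5, the α chain of laminin-511 and laminin-521, differed in direction between the edits. It was at 12.5 CPM in SKMEL28 wild type and at 39.1, 42.3 and 46.2 in MITFKO, a 3.41-fold rise (log2 fold change 1.77 ± 0.164, adjusted p = 7.36e-09). The clones overlapped MITFKO and each other, with 35.6, 39.0 and 36.8 CPM in clone 3 and 35.2, 46.2 and 36.5 in clone 13, and neither was called (adjusted p = 0.143 and 0.403). Replicate 2 was the highest in both clones. Without replicate 2 of both, an alternative chosen after seeing the data, LAMA5 was called lower in clone 3 (-0.23, adjusted p = 0.0328) and clone 13 (-0.24, adjusted p = 0.0251), and without clone 13 replicate 2 alone it was called lower in clone 13 (adjusted p = 0.0346). A375 wild type had 80.8, 82.2 and 76.6 CPM and TFE3KO had 34.5, 33.4 and 32.4. There LAMA5 fell 2.38-fold (-1.25 ± 0.061, adjusted p = 8.09e-24).

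LAMA2, the muscle and nerve chain, was scarce in SKMEL28, at 0.902 CPM in wild type and 0.342 to 1.37 over the edited libraries, with the ranges of the edited groups overlapping and no SKMEL28 comparison called (adjusted p = 0.327 to 0.828). A375 wild type had 3.61, 4.04 and 2.99 CPM and TFE3KO had 12.8, 12.8 and 13.9. LAMA2 thus rose 3.70-fold in A375 TFE3KO (log2 fold change 1.89 ± 0.155, adjusted p = 5.26e-15), without overlap. LAMA3, an epithelial α chain, was low everywhere. It was at 0.451 CPM in SKMEL28 wild type (11 counts) and at 1.38, 1.71 and 1.69 in MITFKO (1.80 ± 0.568, adjusted p = 0.0115). Clone 3 had 1.67, 1.77 and 1.95 CPM, and clone 13 had 3.42, 3.48 and 2.20, with each clone 13 library above every MITFKO library. The rise in clone 13 against MITFKO (0.93 ± 0.323, adjusted p = 0.0255) was not called without any 1 of MITFKO replicates 1, 2 and 3 and clone 13 replicates 1 and 2 (adjusted p = 0.0546 to 0.0957), nor without replicate 2 of both clones (0.0763). In A375, LAMA3 was at 1.33, 1.62 and 1.63 CPM in wild type and 1.20, 1.47 and 1.85 in TFE3KO, which overlapped (-0.04 ± 0.36, adjusted p = 0.946).

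**Figure D3:**
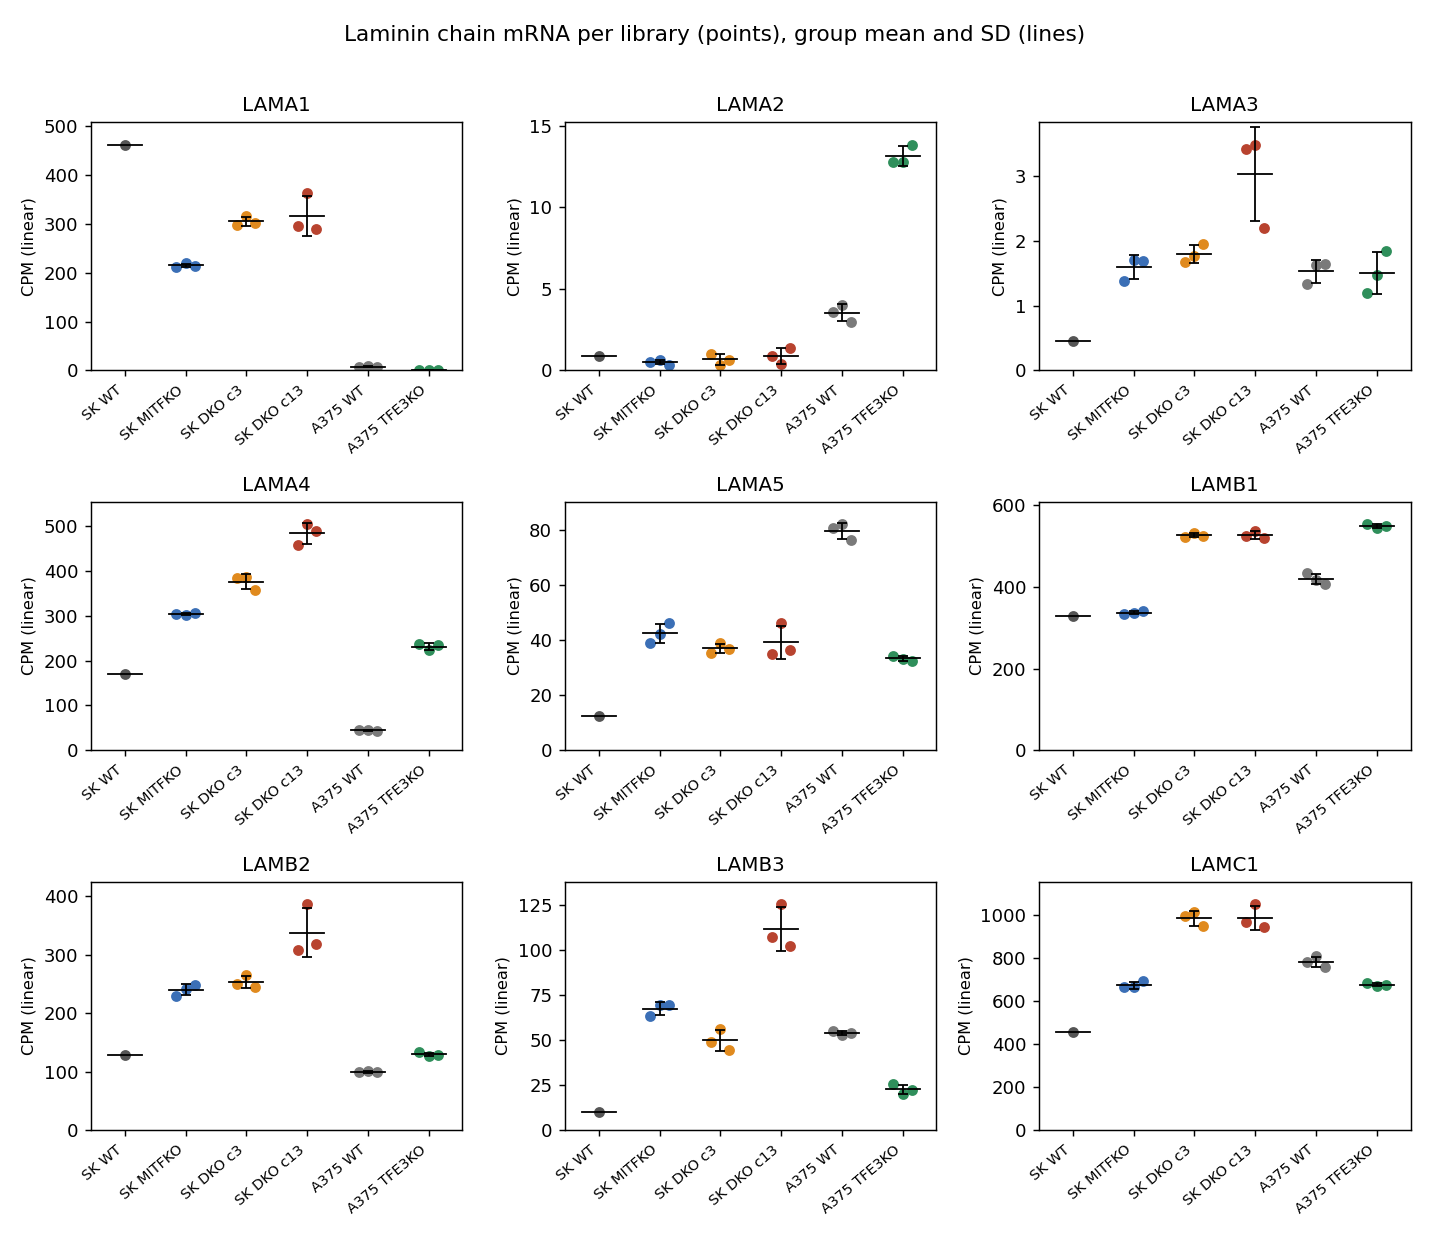
Points give each library's CPM on a linear axis from 0 for the 9 laminin chains in 6 groups (SK, SKMEL28; c3 and c13, clones 3 and 13), with the group mean and SD as black lines. LAMA4 goes from 170.2 CPM in SKMEL28 wild type to 484 in clone 13, and LAMA1 is near 0 in A375 TFE3KO.

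Of the β chains, LAMB1 is the partner in laminin-111, laminin-211, laminin-411 and laminin-511. It was at 328 CPM in SKMEL28 wild type and at 333, 337 and 341 in MITFKO, a difference of 0.04 ± 0.0711 on the log2 scale (adjusted p = 0.672). Clone 3 had 520.9, 532 and 525 CPM and clone 13 had 523.4, 537 and 518. Both clones lay above MITFKO without overlap and close to each other, with log2 fold changes of 0.64 ± 0.0503 in each (adjusted p = 2.28e-09 and 1.37e-09). A375 wild type had 432, 417 and 407 CPM and TFE3KO 552, 543 and 549, a rise of 0.39 ± 0.0312 (adjusted p = 2e-15).

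LAMB2, which replaces β1 in laminin-121, laminin-221, laminin-421 and laminin-521, was at 129 CPM in SKMEL28 wild type and 230.0, 241 and 248 in MITFKO (log2 fold change 0.90 ± 0.106, adjusted p = 3.97e-07). Clone 3, with 249, 265 and 245 CPM, overlapped MITFKO (0.08 ± 0.0708, adjusted p = 0.427). Clone 13, with 308, 386 and 319 CPM, did not, and LAMB2 rose there (0.49 ± 0.0706, adjusted p = 9.33e-06). In A375 it went from 98.8, 101.4 and 98.98 CPM to 133, 126.8 and 128.2 (0.38 ± 0.0447, adjusted p = 5.11e-10). LAMB2 was thus higher in each edit except clone 3.

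LAMB3, an epithelial β chain, was at 10.2 CPM in SKMEL28 wild type and 63.2, 69.5 and 69.8 in MITFKO, a 6.61-fold rise (log2 fold change 2.72 ± 0.157, adjusted p = 5.67e-12). The clones then went opposite ways. Clone 3 had 48.9, 56.2 and 44.6 CPM, below every MITFKO library (-0.43 ± 0.0895, adjusted p = 0.000616), and clone 13 had 107, 125.6 and 102.6, above every one (0.73 ± 0.0869, adjusted p = 8.47e-07). A375 wild type had 54.9, 52.7 and 54.2 CPM and TFE3KO had 25.4, 20.3 and 22.2, a 2.37-fold fall (-1.24 ± 0.0754, adjusted p = 6.39e-20). The A375 groups did not overlap.

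LAMC1, the γ chain of most laminins, had the highest CPM of the 9 in every group but SKMEL28 wild type, where it was at 454 CPM. MITFKO had 665, 664 and 692 CPM (log2 fold change 0.57 ± 0.0808, adjusted p = 3.86e-06). Clone 3 had 995, 1015 and 948 and clone 13 had 966, 1051 and 944, which overlapped each other and lay above every MITFKO library (0.55 ± 0.0553 in each, adjusted p = 8.81e-08 and 5.75e-08). In A375 it was lower in TFE3KO, with 685, 669 and 676 CPM against 782, 808 and 761 (-0.21 ± 0.0294, adjusted p = 4.15e-08). LAMC3, the γ3 chain of laminin-423 and laminin-523, was at 18.0 CPM in SKMEL28 wild type and 9.38, 9.62 and 9.05 in MITFKO, where it fell (-0.95 ± 0.209, adjusted p = 0.00065). LAMB4, which was too low to test, had at most 12 counts in any group. Antisense genes can share reads where strand is not used. LAMC1-AS1 held 0 to 22 counts per library, LAMA4-AS1 0 to 3 and LAMA5-AS1 0 to 1, small beside the chains they overlap.

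Set against the SKMEL28 wild-type library, the libraries labelled MITFKO had more of most chains. LAMA3, LAMA4, LAMA5, LAMB2, LAMB3 and LAMC1 rose and LAMA1 fell, so that 7 of 9 chains were called where 48.6% of 14605 genes were. Called and higher were 6 of 9, against 25.2% of all genes, and called and lower 1 of 9, against 23.4%. The median log2 change of the 9 was 0.84, beside 0.01 over all genes tested. Of 12 laminin receptor genes tested, 9 rose and none fell (median 0.63). ITGA3, whose integrin α3β1 binds laminin-511 among others, went from 18.9 to 325 ± 20.4 CPM (4.10 ± 0.13, adjusted p = 1.77e-16), ITGA6 from 622 to 891 ± 25.9 and dystroglycan, encoded by DAG1, from 598 to 966 ± 23.2. Of 11 basement membrane partners tested, 4 rose and 2 fell. COL18A1 rose from 4.27 to 70.7 ± 5.55 CPM (4.05 ± 0.145, adjusted p = 1.04e-15) and NTN4, a netrin that can bind laminin γ chains, from 0.164 to 7.65 ± 1.94 (5.49 ± 0.551, adjusted p = 2.52e-08). COL4A2 fell from 14.6 to 1.61 ± 0.361 CPM and COL4A1 from 20.8 to 4.53 ± 1.31 (-3.18 ± 0.445 and -2.20 ± 0.302, adjusted p = 3.24e-06 and 3.75e-06). Of 11 genes tested that build the laminin-binding glycan of dystroglycan, 5 rose and 2 fell. With a lone wild-type library, the spread on that side was assumed to equal that of the other groups.

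The second comparison asked what the added TFE3 edit changed in the MITFKO background. In clone 3, LAMA1, LAMA4, LAMB1 and LAMC1 rose and LAMB3 fell, 5 of 9 chains where 35.9% of genes were called (4 higher against 18.2%, 1 lower against 17.6%). The median change was 0.31, beside -0.01 over all genes. In clone 13, LAMA1, LAMA3, LAMA4, LAMB1, LAMB2, LAMB3 and LAMC1 rose and none fell, 7 of 9 where 40.7% of genes were called (20.5% higher, 20.2% lower). The median was 0.64, beside -0.02 over all genes. LAMA1, LAMA4, LAMB1 and LAMC1, the chains of laminin-111 and laminin-411, were thus called higher in each clone, and both clones were set against the same MITFKO libraries.

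Among the receptors, 5 rose and 4 fell of 12 tested in clone 3, where 35.9% of all genes were called, and 8 rose and 1 fell in clone 13, where 40.7% were. The shared integrin subunit ITGB1 rose in clone 3 (0.41 ± 0.0522, adjusted p = 2.51e-06) and clone 13 (0.78 ± 0.0523, adjusted p = 1.5e-10), from 401 ± 12.6 CPM to 532 ± 6.92 and 687 ± 23.4. ITGA6 reached 1335 ± 43.1 CPM in clone 3 and 1016 ± 40.3 in clone 13. ITGA3, like LAMB3, fell in clone 3 (-0.51 ± 0.0679, adjusted p = 5.07e-06) and rose in clone 13 (0.46 ± 0.0673, adjusted p = 1.11e-05). In clone 3, ITGA1 fell from 61.1 CPM in MITFKO to 33.8 (-0.85 ± 0.0848, adjusted p = 8.13e-08). ITGA7 fell there from 30.5 to 20.8 CPM (-0.55 ± 0.11, adjusted p = 0.000428). The tetraspanin CD151, which binds laminin-binding integrins, rose in both (0.61 ± 0.0571 and 0.69 ± 0.0571, adjusted p = 2.99e-08 and 3.37e-09). DAG1 was called higher in clone 13 (0.15 ± 0.0525, adjusted p = 0.0245), a call lost without any 1 of MITFKO replicates 1 and 2 or clone 13 replicates 1 and 3 (0.0721 to 0.106). COL18A1 rose to 112.96 ± 3.2 CPM in clone 3 and 155 ± 9.95 in clone 13. Partners were called in 3 of 11 in clone 3 (2 higher, 1 lower) and in 6 of 11 in clone 13 (4 higher, 2 lower). The partners called in clone 3 were thus 27.3%, below the share of all genes. Dystroglycan glycosylation genes had 4 higher and 1 lower of 11 in clone 3 and 5 higher and 1 lower in clone 13, with POMT1, an O-mannosyltransferase, higher in each (0.61 ± 0.0984 and 0.61 ± 0.0979, adjusted p = 4.43e-05 and 2.9e-05).

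Between the clones, LAMA4, LAMB2 and LAMB3 were higher in clone 13 than in clone 3, by 0.36 ± 0.055, 0.42 ± 0.0707 and 1.16 ± 0.0889 on the log2 scale (adjusted p = 3.37e-05, 0.000145 and 3.47e-09). These were 3 of 9 chains, where 27.6% of genes were called (14.3% higher and 13.4% lower in clone 13). No chain was called lower. LAMB1 and LAMC1 differed by 0.00 ± 0.05 and 0.00 ± 0.0551 (adjusted p = 0.996 and 0.992). LAMA3 was not called (0.75 ± 0.324, adjusted p = 0.0897) but was without clone 13 replicate 3 (adjusted p = 0.0455). ITGA1 and ITGA2, α subunits of integrins that bind collagen and laminin, were higher in clone 13 (1.45 ± 0.0845 and 0.98 ± 0.0668, adjusted p = 5.28e-11 and 4.99e-10), and 7 receptors were higher and 3 lower of 12. Replicate 2 of each clone had the highest CPM of its group for 8 of 9 chains in clone 13 (all but LAMA2) and for 7 of 9 in clone 3 (all but LAMA2 and LAMA3). Such a library was not particular to the clones. A375 TFE3KO replicate 1 was highest for 7 of 9 chains, and A375 wild-type replicate 2 and MITFKO replicate 3 for 6 of 9 each. The share of all genes that were highest in each library was not computed. Without replicate 2 of both clones, 6 chains were called in clone 3 against MITFKO, 7 in clone 13 against MITFKO and 3 between the clones. Of the 9 chains in these 3 comparisons, the calls that changed were those of LAMA5 in each clone and LAMA3 in clone 13, given above.

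Against SKMEL28 wild type, the mean of both clones had 8 of 9 chains called where 52.9% of genes were (7 higher against 26.5%, 1 lower against 26.4%). LAMB3 was 7.32-fold higher (2.87 ± 0.154, adjusted p = 1.1e-12), LAMA4 2.51-fold, LAMB2 2.28-fold and LAMC1 2.17-fold. LAMA1 remained lower (-0.57 ± 0.0869, adjusted p = 9.74e-06). Receptors were higher in 11 of 12 with none lower. COL4A2 was at 0.249 ± 0.173 CPM in clone 3 and 0.178 ± 0.156 in clone 13 against 14.6 in the wild-type library.

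**Figure D4:**
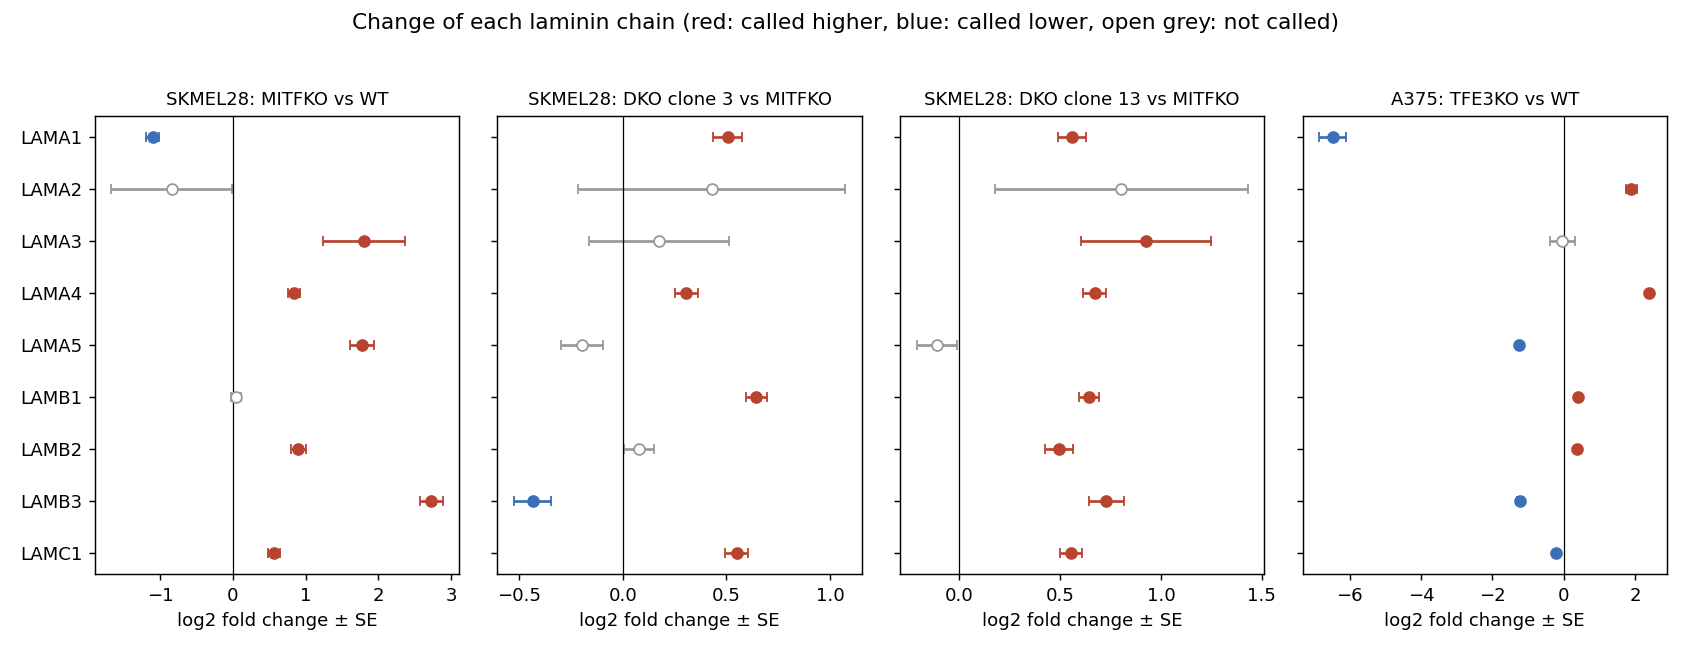
Points give the log2 fold change of each laminin chain with its SE in 4 comparisons (each panel has its own x axis), red where called higher, blue where called lower and open grey where not called. LAMA4 is to the right of 0 in all 4 panels, and LAMA1 lies at -6.47 in A375.

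The A375 comparison asked what the TFE3 edit changed where MITF had not been edited. LAMA2, LAMA4, LAMB1 and LAMB2 rose and LAMA1, LAMA5, LAMB3 and LAMC1 fell, 8 of 9 chains where 43.3% of 14012 genes were called (4 higher against 21.3%, 4 lower against 22.0%). The median was -0.04, beside 0.00 over all genes. Among 13 receptors 5 rose and 5 fell. The β4 integrin ITGB4, which pairs with ITGA6 in a laminin-binding integrin, fell from 29.6 ± 3.61 to 10.5 ± 1.32 CPM (-1.48 ± 0.105, adjusted p = 2.7e-17), and the syndecan SDC4 from 405 ± 4.65 to 174 ± 5.48 (-1.21 ± 0.0347, adjusted p = 9.57e-34). ITGA6 rose (0.57 ± 0.0332, adjusted p = 1.2e-20), while ITGA3, ITGB1 and DAG1 were not called (adjusted p = 0.73, 0.388 and 0.182). Collagen IV rose, COL4A1 from 288 ± 12.7 to 664 ± 39.4 CPM (1.21 ± 0.0357, adjusted p = 1.26e-29) and COL4A2 from 727 ± 29.4 to 1304 ± 65.7 (0.85 ± 0.0315, adjusted p = 1.22e-26). In all, 6 partners rose and 3 fell of 10, with the heparan sulfate proteoglycan AGRN lower (-0.45 ± 0.0314, adjusted p = 1.11e-17). Dystroglycan glycosylation genes had none higher and 3 lower of 12. LAMC3 was called higher (adjusted p = 0.0418) at under 1 CPM, a call that ended with DESeq2 (adjusted p = 0.108), with a replicate block (0.064), with no filter (0.0951), and without any 1 of wild-type replicates 1 and 2 or TFE3KO replicates 1, 2 and 3 (0.0603 to 0.214).

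**Figure D5:**
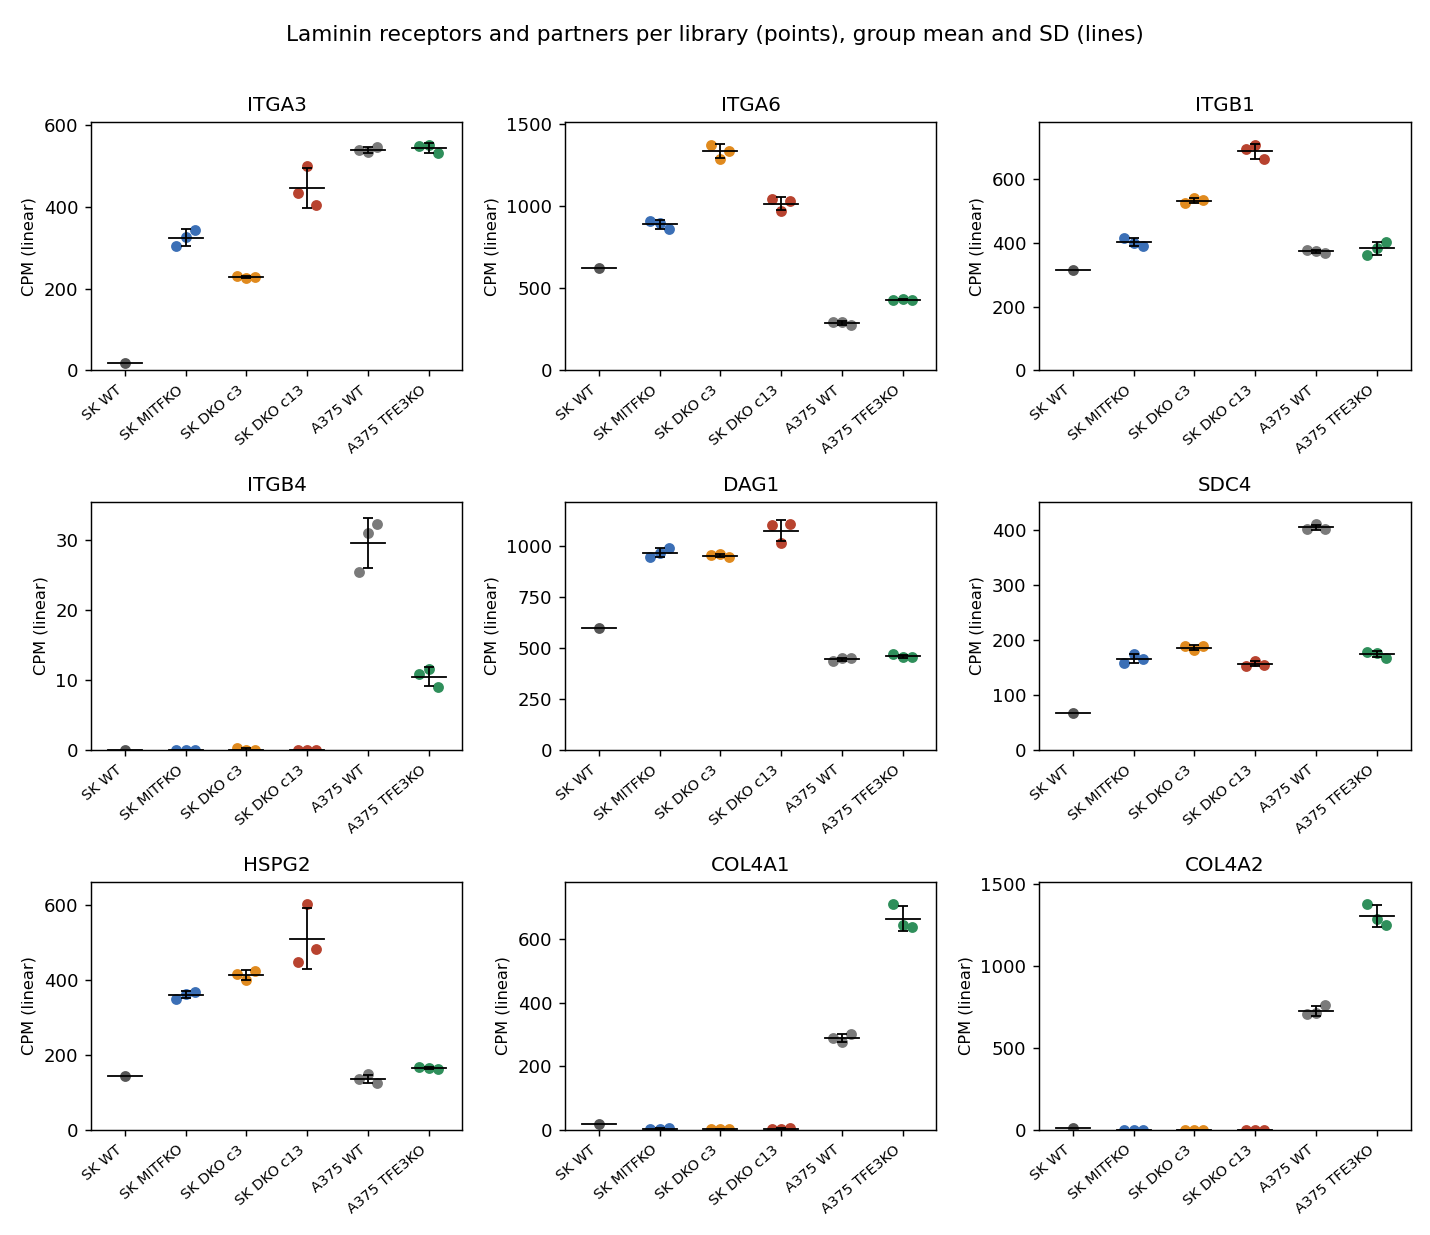
Points give each library's CPM on a linear axis from 0 for 6 laminin receptor genes, HSPG2 and the collagen IV genes COL4A1 and COL4A2, with the group mean and SD as black lines (SK, SKMEL28; c3 and c13, clones 3 and 13). ITGA3 goes from 18.9 CPM in SKMEL28 wild type to 325 in MITFKO, and collagen IV is abundant in A375 only.

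Whether the TFE3 edit acted differently in the 2 lines was tested as an interaction, the mean DKO effect minus the A375 effect. The test averaged both clones, so its p-values do not measure the difference between clones. The interaction was called for 7 of 9 chains, where 37.7% of 15093 genes were (5 positive against 18.5%, 2 negative against 19.3%). LAMA1 rose in the clones and fell in A375, and the effects differed by 6.99 ± 0.299 (adjusted p = 6.45e-15), a size that rests on the few A375 TFE3KO counts. LAMA4 rose in both lines and more in A375, by a difference of -1.88 ± 0.0664 (adjusted p = 1.05e-18). LAMC1 rose in the clones and fell in A375 (0.77 ± 0.0617, adjusted p = 5.31e-11). LAMB3 differed by 1.40 ± 0.119 (adjusted p = 4.14e-10), averaging clones that moved opposite ways, and LAMA5 by 1.11 ± 0.115 (adjusted p = 9.66e-09). LAMB1 rose in both and slightly more in the clones (0.26 ± 0.0558, adjusted p = 0.000403). LAMB2 and LAMA3 were not called (adjusted p = 0.488 and 0.298), although LAMB2 was without replicate 2 of both clones (-0.14, adjusted p = 0.0458). LAMA2 differed by -1.26 ± 0.476 (adjusted p = 0.0367), a call lost without any 1 of MITFKO replicates 1 and 2, clone 3 replicate 2, A375 wild-type replicates 1 and 3, or TFE3KO replicates 1, 2 and 3 (adjusted p = 0.0523 to 0.142), and without replicate 2 of both clones (0.0837).

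Between the unedited lines, all 9 chains were called, where 67.6% of 16248 genes were (6 higher in A375 against 34.1%, 3 lower against 33.6%). LAMA1 was 60.0-fold lower in A375 than in the SKMEL28 wild-type library (-5.91 ± 0.107, adjusted p = 2.8e-24), and LAMA4 3.81-fold lower. LAMA5 was 6.40-fold, LAMB3 5.28-fold and LAMC1 1.72-fold higher in A375. LAMC3 was lower (-5.99 ± 0.325, adjusted p = 1.54e-16). ITGB4 had 2 counts in the SKMEL28 wild-type library and 1919 over the A375 wild-type libraries. Only 1 SKMEL28 library stood on that side.

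Over the 16 libraries, the genes most like each chain in log2 CPM among about 10823 others were named as a description. The libraries come from 2 lines, so these correlations also hold the difference between lines, and r within the 10 SKMEL28 libraries is given beside. LAMA4 was most like SOX10 (r = 0.987, 0.937 within SKMEL28), RHBDF1 (0.986 and 0.940) and SHROOM4 (0.983 and 0.962). LAMB3 was most like KCNMA1 (0.964 and 0.976), CAMK2N1 (0.956 and 0.960) and the integrin gene ITGA2 (0.954 and 0.973). LAMA5 was most like SDC4 (0.949 and 0.922), FSTL3 (0.946 and 0.895) and CMTM3 (0.943 and 0.926), and LAMC1 most like IGFBP7 (0.968 and 0.979), CHPF2 (0.961 and 0.978) and P3H4 (0.947 and 0.957). LAMA1 was most like ADGRL2 (0.995 and 0.783), ADGRG1 (0.994 and 0.445) and DUSP3 (0.992 and 0.948). Among the genes most like LAMA2 were TFAP2B (0.974 and 0.361) and VPS26B (0.964 and 0.489), and LAMA3 was most like DENND1A (0.942 and 0.971), ACP2 (0.921 and 0.960) and NCKIPSD (0.921 and 0.957). LAMB1 was most like COG4 (0.947 and 0.966), NDUFB11 (0.929 and 0.958) and SHROOM2 (0.927 and 0.929), and LAMB2 most like MRPS6 (0.993 and 0.983), P4HA1 (0.992 and 0.967) and ABCA2 (0.992 and 0.982). For LAMA1 and LAMA2, r was lower within SKMEL28 than over both lines for each of these 5 genes, most of all for TFAP2B.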

How the data were processed

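The members and gene lists were chosen with earlier results of these data known. The deposited values are raw read counts per gene symbol, 1 column per library, made by the authors. The file headers name a STAR alignment, and the submitters' processing notes name STAR, featureCounts, DESeq2 and hg19, without versions or order. The header of the SKMEL28 wild-type library names another numbered input than the others that list inputs. Annotation, strand use and handling of reads with several matches are unstated in these sources and so not given here.

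Tests used edgeR 4.0.16 (R 4.3.3) with filterByExpr by group, TMM scaling and the robust quasi-likelihood F-test. P-values were adjusted by Benjamini-Hochberg across every gene tested, and the threshold was 0.05. SEs are the log2 fold change divided by the square root of F. They are approximate and may be too small where a group has few counts, as for LAMA1 in A375 TFE3KO and NTN4 in SKMEL28 wild type. All 9 chains passed the filter in each of the 8 comparisons. SKMEL28 comparisons came from 1 model of 10 libraries, A375 from 6, the difference of effects from 15 and the line comparison from 16. The code was tested on simulated data.

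All 9 members were named. Other genes came from the lists: up to 2 with the largest rise and 2 with the largest fall among called genes of at least 5 CPM. Some of these are left out. Selected receptors and LAMC3 are given in some comparisons only. A gene that is not given in a comparison may still have been called there. Some items are not reported here. For patterns, the 3 most correlated genes of at least 5 CPM were taken, on log2(CPM + 0.5). Alternatives were RLE scaling, DESeq2 1.42.0, no filter, a replicate block, and leaving out each replicate. The 3 same-numbered pairs of clone 3 and clone 13 had deviations from their group means correlated at r = 0.117, 0.341 and 0.125. Differently numbered pairs of the clones ran from -0.242 to 0.153. Only the replicates numbered 2 stood apart, and numbers 1 and 3 were not told apart. No label ties the numbers, so pairing of the clones by number was not established. A trimer was counted at means of 1, 0.5 and 5 CPM. Promoters came from RefSeq (GRCh38.p14) and lengths from GENCODE 29. Because counts were made on hg19, no other coordinates are given.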

Additional observations from a re-analysis of the deposited data

Results flagged for a closer look

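The effect of the TFE3 edit differed between the SKMEL28 clones and A375 for 7 of the 9 chains by the interaction test in edgeR. As the effect in the clones minus that in A375, on the log2 scale, the differences were 6.99 for LAMA1 (adjusted p = 6.45e-15), -1.26 for LAMA2 (0.0367), -1.88 for LAMA4 (1.05e-18), 1.11 for LAMA5 (9.66e-09), 0.26 for LAMB1 (0.000403), 1.40 for LAMB3 (4.14e-10) and 0.77 for LAMC1 (5.31e-11). Of all genes tested, 37.7% were called in this test. Its p-values rest on the spread between cultures with both clones averaged, and do not measure the difference between clones. The lines also differ in medium and in whether MITF was edited, which cannot be told apart from the line.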

How the results depend on the processing

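The 9 chains were called or not called as in the report, with the same direction, under RLE scaling, DESeq2 and no filter (72 of 72 values each) and under the replicate block (45 of 45). Over the fits that left out 1 replicate, 703 of 729 values kept both, and the number of chains called ranged from 6 to 7 for clone 13 against MITFKO, from 3 to 4 between the clones and from 6 to 7 for the difference of effects, and stayed at 7, 5, 8, 8 and 9 for the other comparisons. The replicate block changed no call of the 9 chains, between the clones or elsewhere. For the other groups the replicate numbers did not pair the samples. Same-numbered libraries had deviations correlated at r = -0.055 to 0.0417 between MITFKO and clone 3, and -0.0558 to 0.0755 between MITFKO and clone 13. In A375 the range was -0.0838 to -0.00137. With the block, clone 3 had 5 chains called, clone 13 had 7, clone 13 against clone 3 had 3, A375 had 8 and the difference of effects 7. No paired analysis was possible for the comparisons with SKMEL28 wild type because its replicate number occurs once.

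None of the 18 values that changed direction was called in either fit. Leaving out 1 replicate gave ranges of -0.00883 to 0.0202 for LAMB1, -0.0401 to 0.0406 for LAMC1, -0.0535 to 0.12 for LAMA1, -0.043 to 0.17 for LAMA5 and -0.10 to 0.83 for LAMA2 between the clones, -0.0178 to 0.75 for LAMA2 in clone 3, -0.20 to 0.12 for LAMA3 in A375, and -0.0782 to 0.0128 for ITGA3 in the difference of effects. Without replicate 2 of both clones, LAMA1, LAMA5, LAMB1 and LAMC1 between the clones were -0.0265, -0.00587, -0.00049 and -0.0183, and LAMA2 in the clones against wild type was 0.11. The cause was not tested.

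At 5 CPM, A375 wild type allowed 6 trimers in place of 10, and at 0.5 CPM A375 TFE3KO allowed 11 in place of 8. Removing a GC content trend from MITFKO against wild type, added after seeing the data, kept the direction of all 9 (LAMA5 1.27 in place of 1.77, LAMB2 0.63 in place of 0.90). LAMA2 and LAMA3 in SKMEL28 rest on at most 70 counts per library, which limits their precision.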

Other observations

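Of the proteases that can cleave laminin chains, the A375 TFE3KO libraries had lower CTSS, which encodes cathepsin S (54.4 to 5.81 CPM, log2 fold change -3.19 ± 0.0964, adjusted p = 1.23e-32 by edgeR), and lower MMP2 (452 to 255 CPM, -0.82 ± 0.0327, adjusted p = 1.44e-27), 2 of 5 tested and none higher, a share near the 43.3% of all genes called in that comparison. In SKMEL28, MMP14 and BMP1 were higher in MITFKO than in the wild-type library (0.92 ± 0.0808 and 0.70 ± 0.107, adjusted p = 3.03e-09 and 1.01e-05). BMP1 was higher again in clone 13 than in MITFKO (0.72 ± 0.0712, adjusted p = 4.59e-08), and MMP14 was lower in each clone than in MITFKO (-0.32 ± 0.054 and -0.29 ± 0.054, adjusted p = 8.48e-05 and 0.000143).

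Of the netrins and laminin-like genes, NTN1, an axon guidance ligand, was at 7.38 CPM in clone 3 against 3.46 in MITFKO (1.09 ± 0.199, adjusted p = 0.000164) and 3.61 in clone 13. The change was not particular to clone 3, since NTN1 went from 0.88 ± 0.217 CPM in A375 wild type to 3.28 ± 0.444 in A375 TFE3KO.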
